A study of Homo sapiens with 4 samples.

Results

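The genes described here are 10 transcription factors known for the mesenchymal cell state: *PRRX1*, *TWIST1*, *TWIST2*, *SNAI1*, *SNAI2*, *RUNX1*, *RUNX2*, *FOSL1*, *FOSL2* and *SOX9*. They were listed by name, with earlier results of these data known, and all 10 were found among the 57820 genes of a transcript count table. RNA-seq had been performed on SK-N-SH, an established human neuroblastoma cell line. In the vector control group (2 libraries, titled WT) the cells were wild type and carried an empty lentivirus. In the OE group (2 libraries) they carried a lentivirus that expresses the long noncoding RNA *RP5-998N21.4* from the EF1a promoter, a promoter active in most cell types, so every library came from transduced cells of 1 line. The methods do not describe a selection of transduced cells, and nothing states that libraries of a group came from separate cultures, so p-values here measure only the spread between libraries, which may be technical.

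Neuroblastoma cells are known in an adrenergic state, close to sympathetic neurons and run by factors such as GATA3 and HAND2, and in a mesenchymal state, close to neural crest cells and fibroblasts. SK-N-SH is known to hold cells of both kinds. PRRX1 is a homeodomain factor of limb and craniofacial mesenchyme that can move neuroblastoma cells towards the mesenchymal state. TWIST1 and TWIST2 are basic helix-loop-helix factors that bind E-box DNA as dimers with E proteins, and ID proteins compete for those partners. SNAI1 and SNAI2 are zinc finger repressors of epithelial adhesion genes such as *CDH1*. RUNX1 and RUNX2 bind DNA together with CBFB, FOSL1 and FOSL2 join JUN proteins in the AP-1 dimer, and SOX9 acts in neural crest and cartilage. These functions are background and were not measured here.

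Total counts per library were between 23785164 and 28307591, and 20528 genes, all 10 factors among them, passed a filter on low counts. Levels are given in CPM, a gene's counts relative to its TMM-scaled library total, where 1 count was worth between 0.0346 and 0.0429 CPM. The overexpressed *RP5-998N21.4* was counted 32 and 33 times in controls 1 and 2 and 2407 and 2808 times in OE 1 and 2 (log2 fold change 6.11, SE 0.108, Benjamini-Hochberg adjusted p = 0.0109 from the quasi-likelihood test of edgeR), in the direction of the labels. Whether its reads are shared with copies elsewhere in the genome was not tested. Of 12 sympathetic neuroblastoma markers, 11 had a mean of at least 1 CPM, while *TH* was at 0 counts in all 4 libraries, and all 8 markers of mesenchymal-type neuroblastoma cells passed that level. Of 9 measured markers of other tissues, 4 were at 0 counts in all libraries, and the 9 together summed to between 2.9 and 7.28 CPM.

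Levels of different genes can be compared only per length, so they were also put on the TPM scale (counts divided by transcript length and scaled to a common total per library). On that scale *PRRX1* was the highest, with a mean of 848 TPM over the 4 libraries, followed by *TWIST1* at 341 TPM and *FOSL1* at 242 TPM. *FOSL2* (144 TPM) and *SNAI2* (119 TPM) came next. *SNAI2* overlapped both *FOSL2* and *FOSL1*, since it reached 229.9 TPM in control 1. *TWIST2* (32.7 TPM) and *RUNX1* (30.3 TPM) also overlapped, as did *SNAI1* (12.1 TPM) and *SOX9* (12.0 TPM), and *RUNX2* was the lowest at 7.34 TPM. The order rests on which transcript the counts were placed on, described for each gene below.

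**Figure D1:**
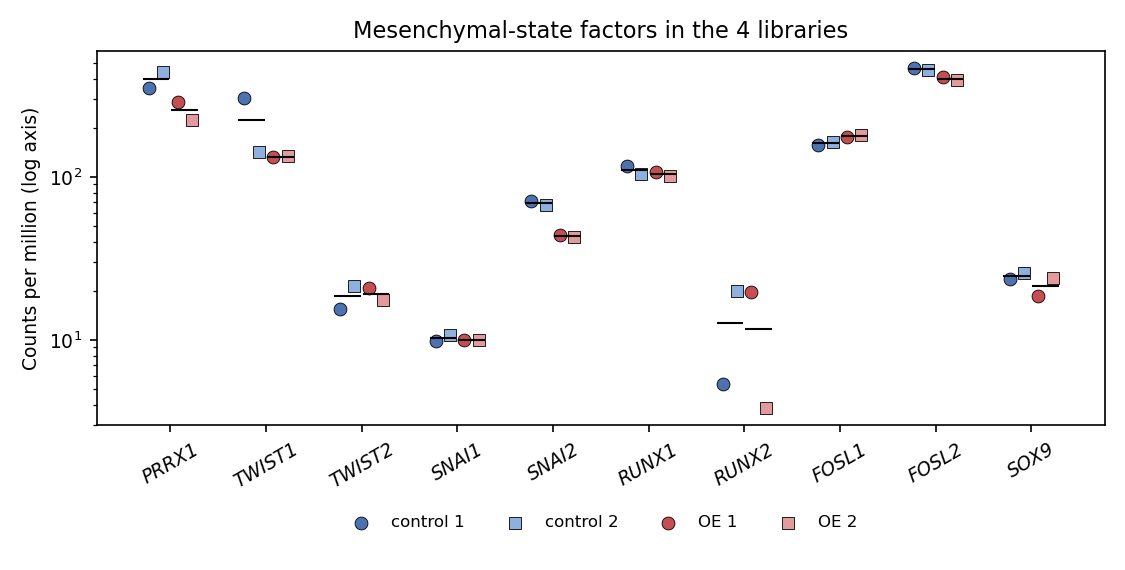
Level of each of the 10 transcription factors in every library, in CPM on a log axis, with 1 point per library and a bar at each group's mean. *SNAI2* lay at 71.0 and 67.5 CPM in the vector control and at 43.8 and 42.6 CPM in OE, while the *RUNX2* libraries of either group lay far apart.

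*PRRX1* (1:170631869-170708562 on hg19, plus strand) was lower in OE. Its counts were 8212 and 10408 in controls 1 and 2 and 7224 and 6477 in OE 1 and 2, that is 353 and 443 CPM against 288 and 224 CPM. Both OE libraries lay below both controls, and replicates of a group differed by 1.26-fold in the control and 1.29-fold in OE. The means were 398 ± 63.8 CPM (SD, n = 2) and 256 ± 45.2 CPM (SD, n = 2). The log2 fold change was -0.64 (SE 0.186, 95% confidence interval -1.17 to -0.11), with an unadjusted p of 0.0298 and an adjusted p of 0.194 by edgeR, so it did not pass the adjustment. DESeq2's Wald test on the same counts gave an adjusted p of 0.00579, and over all alternatives it lay between 0.00579 and 0.973.

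The counts of *PRRX1* did not sit on the same transcripts in all libraries. The protein-coding transcript ENST00000367760.3, 2217 nt long, held 0 and 7860 counts in controls 1 and 2 against 5123 and 0 in OE 1 and 2. ENST00000476867.2, 586 nt long and without a defined coding sequence, held 5546 and 444 counts in the control and 371 and 4322 in OE. Control 1 thus resembled OE 2, and control 2 resembled OE 1, which is not the split of the conditions. ENST00000553786.1, which starts 1403 bases upstream of the RefSeq start site, was steadier, with 2055 and 2005 counts in the control and 1621 and 1651 in OE. Per length, *PRRX1* was at 1308 and 700.3 TPM in the control and 514 and 868 TPM in OE, and the groups overlapped on that scale.

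Among 106 measured genes of the companion lists described below, the profile of *PRRX1* over the 4 libraries was most like that of *EPCAM*, *JUNB* and *COL10A1*. Likeness was the mean absolute difference of log2(CPM + 0.5) after centring each gene, and it was 0.09 for *EPCAM*, 0.11 for *JUNB* and 0.13 for *COL10A1*. *EPCAM*, an epithelial adhesion gene, was near the detection limit at 0.277 to 1.28 CPM, where the pseudocount of 0.5 CPM shrinks differences: its fitted log2 fold change was -1.35 against -0.64 for *PRRX1*. *COL10A1*, a collagen of cartilage, was also low, at 1.8 to 5.32 CPM. *JUNB*, an AP-1 subunit, was at 407 and 444 CPM in the control and 334 and 304 CPM in OE. With 4 libraries, and with low genes drawn closer by the pseudocount, such a ranking is a description only.

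*TWIST1* (7:19060614-19157259, minus strand) was lower in OE, but 1 library set the size of the difference. It was at 304 and 143 CPM in the vector control libraries and at 132 and 134 CPM in the OE libraries. Control 1 stood 2.13-fold above control 2, and control 2 lay just above OE. The log2 fold change was -0.75 (SE 0.402, interval -1.89 to 0.40, edgeR adjusted p = 0.383). It was -0.11 without control 1, -1.20 without control 2 and -1.33 with the leading transcript alone.

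In control 1 all 7088 counts of *TWIST1* were placed on the protein-coding transcript ENST00000242261.5, 1630 nt long. In the other 3 libraries that transcript held 1808 (control 2), 1849 (OE 1) and 2264 (OE 2) counts, and the shorter ENST00000443687.1, annotated as a target of nonsense-mediated decay, held 1543, 1474 and 1600 counts against 0 in control 1. The library with the high sum was therefore also the one with a different placement. Per length the values were closer, at 378 and 339 TPM in the control and 323 and 323 TPM in OE. Exons of *TWIST1* overlap those of 1 gene on the opposite strand, ENSG00000232821, which had 112 and 117 counts in the control and 191 and 193 in OE. The use of strand in counting is not given in the sources used here, so reads of this pair cannot be told apart.

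*TWIST2* (2:239756673-239832230, plus strand), the close relative of *TWIST1* in dermal mesenchyme, did not separate the groups. It was at 15.5 and 21.5 CPM in the control and 20.8 and 17.6 CPM in OE, all on 1 transcript. Its log2 fold change was 0.05 (SE 0.219, interval -0.57 to 0.68, edgeR adjusted p = 0.921). A difference within that interval, in either direction, was not detectable with this spread.

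*SNAI2*, which encodes the repressor SLUG of neural crest and mesenchyme, gave the tightest separation of the 10 factors. Its counts were 1654 and 1586 in controls 1 and 2 and 1099 and 1233 in OE 1 and 2, at 71.0 and 67.5 CPM against 43.8 and 42.6 CPM. Both OE libraries lay below both controls, with a gap several times wider than the spread within either group. The means were 69.3 ± 2.5 CPM (SD, n = 2) and 43.2 ± 0.828 CPM (SD, n = 2), a ratio of 0.623. The log2 fold change was -0.68 (SE 0.089, interval -0.93 to -0.43), with an unadjusted p of 0.00203 and an adjusted p of 0.078 by edgeR. DESeq2 gave an adjusted p of 1.26e-13, and the range over all alternatives was from 1.26e-13 to 0.971.

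The placement of *SNAI2* counts split by replicate number instead of by condition. In replicate 1 of either group all counts were on ENST00000396822.1, 626 nt long, with 1654 in the control and 1099 in OE. In replicate 2 of either group the 2180 nt ENST00000020945.1 held 1584 counts in the control and 1229 in OE, and the shorter transcript held 2 and 4. Within either placement the OE library was the lower one. Because of the different lengths, the TPM values were 229.9 and 61.3 in the control and 144 and 41.6 in OE, which overlap. Its exons overlap 1 annotated gene on the opposite strand, which has no transcript in the table.

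*SNAI1* (20:48599517-48605423, plus strand), which encodes the founding SNAIL repressor, was level across libraries. It was at 9.88 and 10.7 CPM in the control and 10.0 and 9.92 CPM in OE. The groups overlapped, and the log2 fold change was -0.05 (SE 0.129, interval -0.41 to 0.32, edgeR adjusted p = 0.877). The lower end of that interval is above the -0.68 of *SNAI2*. Whether *SNAI1* and *SNAI2* differed from each other was not tested.

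Each RUNX gene has a distal and a proximal promoter, which give proteins with different first residues, and RefSeq windows (GRCh38.p14, 250 bases before to 50 after the start) were at hand for 1 start of *RUNX1* and both of *RUNX2*. They are shown because the counts of *RUNX1* and *RUNX2* were spread differently over these starts. *RUNX1* proximal is chr21:34888650-34888949 (minus strand), *RUNX2* distal is chr6:45328080-45328379 (plus strand) and *RUNX2* proximal is chr6:45422025-45422324 (plus strand). Capitals mark the AP-1 letters TGANTCA and the RUNX letters TGTGGT on either strand, which read ACCACA on the other.
RUNX1 proximal: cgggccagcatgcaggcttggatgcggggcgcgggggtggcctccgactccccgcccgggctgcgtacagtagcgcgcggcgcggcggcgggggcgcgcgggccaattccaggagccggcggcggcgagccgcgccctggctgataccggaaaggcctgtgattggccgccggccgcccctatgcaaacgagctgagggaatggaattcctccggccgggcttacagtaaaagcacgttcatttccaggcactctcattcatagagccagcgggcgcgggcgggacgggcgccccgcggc
RUNX2 distal: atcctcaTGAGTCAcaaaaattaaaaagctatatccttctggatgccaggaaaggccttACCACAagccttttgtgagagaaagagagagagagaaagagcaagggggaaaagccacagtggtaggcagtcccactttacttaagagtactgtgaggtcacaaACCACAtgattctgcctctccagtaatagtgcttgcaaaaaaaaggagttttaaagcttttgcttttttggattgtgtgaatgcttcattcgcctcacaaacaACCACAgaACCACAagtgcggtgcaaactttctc
RUNX2 proximal: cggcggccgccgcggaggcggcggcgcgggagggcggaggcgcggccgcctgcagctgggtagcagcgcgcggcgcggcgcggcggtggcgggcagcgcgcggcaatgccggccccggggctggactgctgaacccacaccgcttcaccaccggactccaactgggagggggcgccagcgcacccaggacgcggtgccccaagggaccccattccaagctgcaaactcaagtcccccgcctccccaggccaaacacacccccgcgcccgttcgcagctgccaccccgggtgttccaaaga
The *RUNX2* distal window held 4 RUNX matches and 1 AP-1 match at a GC content of 42.7%. The proximal windows held none of these letters, at 72% GC for *RUNX1* and 76% for *RUNX2*. RUNX letters occur in 13.1% of 35116 RefSeq promoter windows of this length and AP-1 letters in 7.71%. A match is a run of letters and not a bound site.

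*RUNX1* (21:36160098-37376965, minus strand), known for blood and neural crest derived sensory neurons, was at 116 and 104 CPM in the vector control and 107 and 101 CPM in OE. The groups overlapped, with a log2 fold change of -0.08 (SE 0.097, interval -0.36 to 0.19, edgeR adjusted p = 0.679). Transcripts starting within 500 bases of the proximal start held 2696 and 2430 of its counts in the control and 2682 and 2909 in OE, nearly all of them on ENST00000344691.4, which starts 9 bases downstream. The distal transcript ENST00000300305.3 held 10 counts in control 2 and 0 in the other libraries, where a limit of 3 counts applies. The counts of *RUNX1* were thus placed at the proximal start in every library.

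*RUNX2* (6:45295894-45632086, plus strand), the master regulator of bone-forming cells, varied more within the groups than between them. Its counts were 125 and 468 in controls 1 and 2 and 491 and 110 in OE 1 and 2, at 5.37 and 19.9 CPM against 19.6 and 3.8 CPM. The replicates differed by 3.71-fold in the control and 5.15-fold in OE, and the log2 fold change of -0.12 had an SE of 1.06 (interval -3.14 to 2.91, edgeR adjusted p = 0.962). No statement about its direction can be made at this spread: the log2 fold change was 1.12 without control 2 and -1.73 without OE 1.

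The high libraries of *RUNX2* were those with counts on the 5698 nt transcript ENST00000371438.1, which starts 39 bases from the distal RefSeq start and held 0 and 383 counts in the control and 462 and 0 in OE. Control 2 and OE 1 thus had this transcript and control 1 and OE 2 did not, the same division of libraries as for *PRRX1*. Transcripts at the proximal start held 73 and 85 counts in the control and 0 and 53 in OE. Per length the spread shrank, to 6.72 and 8.73 TPM in the control and 8.55 and 5.36 TPM in OE.

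*FOSL2* (2:28615315-28640184, plus strand), an AP-1 subunit that bone, skin and fibroblasts use, had the highest CPM of the 10 factors and a narrow spread. It was at 468 and 451 CPM in the vector control and 409 and 394 CPM in OE, with means of 459 ± 11.5 (SD, n = 2) and 401 ± 10.4 CPM (SD, n = 2). Both OE libraries lay below both controls by a small margin. Per length the groups touched, at 142 and 149.8 TPM in the control and 142 and 140.2 TPM in OE. The log2 fold change was -0.20 (SE 0.0541, interval -0.35 to -0.04), with an unadjusted p of 0.0253 and an adjusted p of 0.182 by edgeR. DESeq2 gave an adjusted p of 0.00103 (0.00103 to 0.947 over the alternatives), and the size was under the study's threshold of 0.5. The RefSeq window of its start, chr2:28392608-28392907 (plus strand, GRCh38.p14), is shown because *FOSL2* is itself part of AP-1 and the window holds 1 AP-1 match, in capitals.
FOSL2: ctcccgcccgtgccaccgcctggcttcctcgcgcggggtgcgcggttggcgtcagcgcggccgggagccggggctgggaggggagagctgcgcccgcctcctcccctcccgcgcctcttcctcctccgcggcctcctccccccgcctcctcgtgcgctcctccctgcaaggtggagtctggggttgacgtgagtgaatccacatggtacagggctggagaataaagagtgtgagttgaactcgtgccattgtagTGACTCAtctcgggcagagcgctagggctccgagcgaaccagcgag
Both leading transcripts of *FOSL2* start within 56 bases of this site. In control 1 the 6713 nt ENST00000264716.4 held 10881 counts and the 5829 nt ENST00000379619.1 held 0. In the other libraries the longer one held 1706, 1573 and 1796 counts and the shorter one 8894, 8676 and 9593. With only the transcript of the highest mean count, the log2 fold change was 0.84, the opposite direction, since control 1 then counts as 0.

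*FOSL1* (11:65659520-65668044, minus strand), the growth factor-induced AP-1 subunit, was the 1 factor with both OE libraries above both controls. It was at 158 and 164 CPM in the vector control and 176 and 180.2 CPM in OE, nearly all on ENST00000448083.2 in each library. The means were 161 ± 3.78 and 178 ± 2.69 CPM (SD, n = 2 each). The log2 fold change was 0.15 (SE 0.0655, interval -0.04 to 0.34, edgeR adjusted p = 0.312), and DESeq2 gave an adjusted p of 0.0477, within 0.0477 to 0.535 over the alternatives. It lay on the other side of 0 from *FOSL2*. The difference between them was not tested.

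*SOX9* (17:70117161-70122557, plus strand) was at 23.5 and 25.7 CPM in the vector control and 18.7 and 24.1 CPM in OE, all on 1 transcript. OE 2 lay between the controls and OE 1 below them, so the groups overlapped. The log2 fold change was -0.20 (SE 0.171, interval -0.69 to 0.29, edgeR adjusted p = 0.564). It was -0.40 without OE 2 and -0.03 without OE 1.

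Over the 10 factors, 8 log2 fold changes were negative and 2 positive, with a median of -0.16 against 0.01 over all tested genes. At the study's thresholds (adjusted p under 0.01, absolute log2 fold change above 0.5) edgeR called 0 of the 10, as it called 0% of all tested genes. At an unadjusted p under 0.05 (20.8% of all tested genes in either direction), 3 factors were lower in OE, *PRRX1*, *SNAI2* and *FOSL2* (10.7% of all), and 0 were higher (10.1%). With each library left out, the log2 fold changes lay from -0.83 to -0.47 (*PRRX1*), -0.72 to -0.65 (*SNAI2*) and -0.23 to -0.17 (*FOSL2*). Upper-quartile scaling gave 2 factors lower and 1 higher, where 1898 and 2413 of all 20528 tested genes were. The leading transcript alone gave 0 in either direction, where 1877 of 20164 tested genes were lower and 1842 higher. DESeq2 called 2 at the study's thresholds (8.77% of all), *PRRX1* and *SNAI2*, both lower (4.42%), and 0 higher (4.35%). In 4 factors both OE libraries lay below both controls (27.6% of all), in 1 both lay above (27.8%), so 5 did not overlap (55.4%) and 5 did. An exact permutation test of 2 libraries against 2 cannot give a two-sided p below 0.333. In bulk RNA, fewer cells of the mesenchymal type and less RNA of these genes per cell cannot be told apart.

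**Figure D2:**
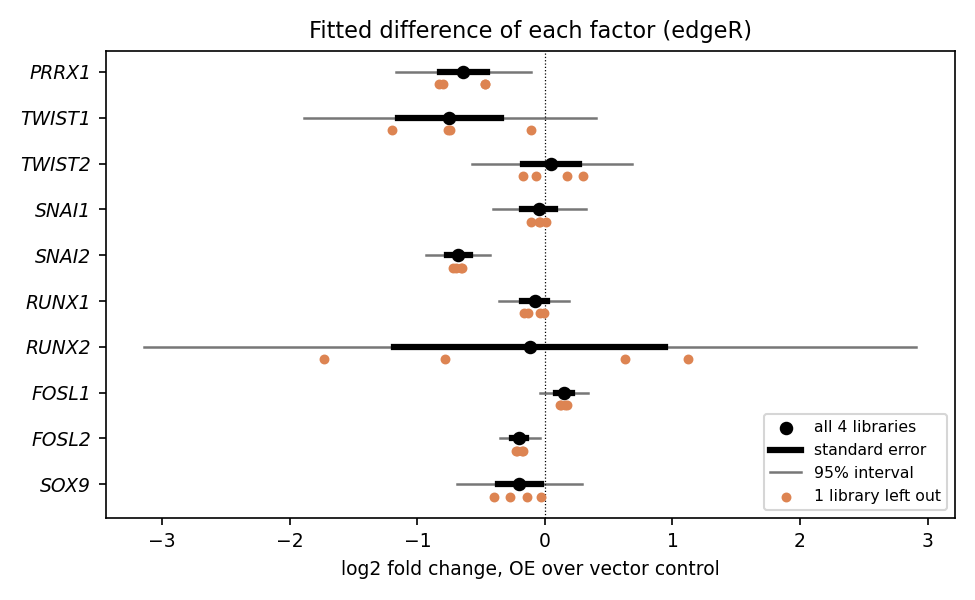
Log2 fold change (OE against vector control) of the 10 factors from edgeR, with the 95% confidence interval as a bar. The intervals of *SNAI2* (-0.93 to -0.43), *PRRX1* (-1.17 to -0.11) and *FOSL2* (-0.35 to -0.04) lie below 0, and that of *RUNX2* spans -3.14 to 2.91.

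The leading transcript, the one with the most counts, differed between libraries in 4 of the 10 factors, *PRRX1*, *SNAI2*, *RUNX2* and *FOSL2*. These are 4 of the 7 factors with at least 2 transcripts holding counts. Among all such tested genes it was 3693 of 11525 (32%), and no test was made of that difference. *TWIST1* kept its leading transcript but not the share on it. No factor's placement followed the condition: control 1 stood alone for *TWIST1* and *FOSL2*, the replicate 1 libraries went together for *SNAI2*, and control 1 went with OE 2 for *PRRX1* and *RUNX2*. *TWIST1* and *RUNX2* were the 2 factors whose replicates differed more than 1.5-fold in a group, as 21.3% of tested genes did in the control and 20.4% in OE. The part of placement in the gene sums was not tested.

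**Figure D3:**
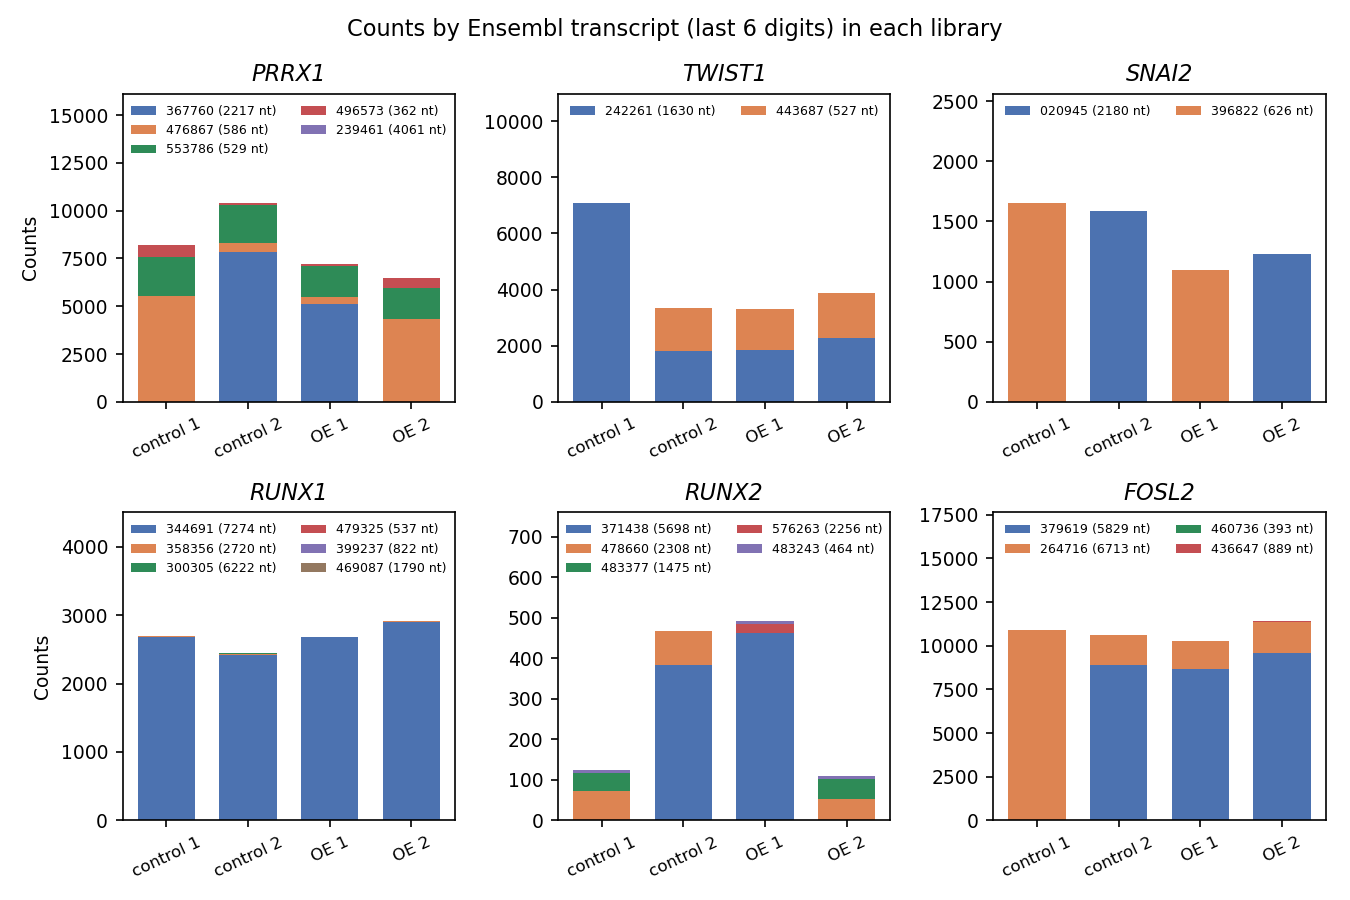
Counts of *PRRX1*, *TWIST1*, *SNAI2*, *RUNX1*, *RUNX2* and *FOSL2* on each annotated transcript in the 4 libraries, as stacked bars from 0. Control 1 and OE 2 share a placement for *PRRX1*, and replicate 1 libraries share one for *SNAI2*, so bars of 1 condition differ in make-up.

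The proteins that these factors bind were measured as a list of 16 dimer partners, cofactors and inhibitors, all tested. At an unadjusted p under 0.05 by edgeR, 2 were higher and 3 lower in OE (10.1% and 10.7% of all tested genes), with a median log2 fold change of 0.08 (-0.06 without OE 2). At the study's thresholds edgeR called 0 of all 20528 tested genes, and so 0 genes of this or any other list named here. *CBFB*, the partner of RUNX proteins, was at 5.8 and 5.15 CPM in the vector control and 95.1 and 92.0 CPM in OE (log2 fold change 4.09, SE 0.12, edgeR adjusted p = 0.0128). Its counts were on different transcripts in the groups: 135 and 121 control counts were all on the 584 nt ENST00000561924.2, while 2386 and 2657 OE counts were on the 3134 nt ENST00000290858.6, which held 0 in the control. The sum of *CBFB* therefore compares different transcripts. *TLE3*, a corepressor of RUNX factors, was at 32.9 and 35.2 CPM against 54.4 and 57.0 CPM (adjusted p = 0.0797 by edgeR), and its leading transcript also differed between libraries. *ID1*, an inhibitor of E proteins, was at 219 and 226 CPM against 177 and 169.8 CPM, and *ID4* at 23.6 and 24 against 18.9 and 17.8 CPM. *JUNB* had a log2 fold change of -0.41 (adjusted p = 0.122 by edgeR). The E proteins *TCF3* (0.03), *TCF4* (0.13) and *TCF12* (0.07) and the AP-1 partner *JUN* (0.09) had log2 fold changes near 0.

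Of 7 close paralogues 5 were tested, with a median log2 fold change of -0.72 (-0.35 without control 1 and -0.34 without OE 1), and 1 was higher and 1 lower at an unadjusted p under 0.05 by edgeR (10.1% and 10.7% of all tested genes). *PRRX2*, the relative of *PRRX1*, was at 2.62 and 3.92 CPM in the control and 5.22 and 6.08 CPM in OE, the opposite side from *PRRX1* (log2 fold change 0.79, edgeR adjusted p = 0.234). *FOSB*, another AP-1 subunit, was at 2.1 and 2.77 CPM against 0.837 and 0.864 CPM (log2 fold change -1.51, edgeR adjusted p = 0.11). These genes were at a few CPM, where counting error is large.

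A list of 25 other regulators of the mesenchymal state had 24 tested genes, with 2 higher and 9 lower at an unadjusted p under 0.05 and a median of -0.08 (-0.18 without OE 1). Over all tested genes these shares were 10.1% higher and 10.7% lower, and DESeq2 called 2 higher and 2 lower in the list at the study's thresholds (4.35% and 4.42% of all tested genes). *GLIS3*, a zinc finger factor, was at 47.6 and 46.4 CPM in the vector control and 23.7 and 26.0 CPM in OE (log2 fold change -0.92, edgeR adjusted p = 0.0693). *KLF4*, a Krüppel-like factor, lay on the other side at 11.1 and 10.6 CPM against 23.2 and 19.0 CPM (log2 fold change 0.96, edgeR adjusted p = 0.097). *TBX18*, a T-box factor of mesenchyme, *ZNF217* and *YAP1*, the Hippo pathway coactivator, had log2 fold changes of -0.58, -0.45 and -0.27. *ZEB2*, an E-box repressor like the SNAI factors, was level at -0.02, and its relative *ZEB1* was at 75.5 and 104 CPM in the control and 105 and 113 CPM in OE (log2 fold change 0.27).

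Of 27 mesenchymal effector genes (matrix, adhesion and protease genes), 1 was higher and 9 were lower at an unadjusted p under 0.05 by edgeR. Their median was -0.24 against 0.01 for all genes, and -0.12 among the 21 with 1 leading transcript in all libraries. The shares over all tested genes were again 10.1% and 10.7%, and DESeq2 called 0 higher and 3 lower in this list (4.35% and 4.42% of all). *CD44*, a hyaluronan receptor, was at 613 and 565 CPM in the control and 354 and 365 CPM in OE (log2 fold change -0.71, edgeR adjusted p = 0.0615). *CDH11*, a mesenchymal cadherin, was at 386 and 409 CPM against 257 and 266 CPM, and *LOX*, which crosslinks collagen, at 23.1 and 26.1 CPM against 13.7 and 11.7 CPM. Over the list, both OE libraries lay above both controls in 3 genes (27.8% of all tested genes) and below in 16 (27.6%), and 8 overlapped. *SPARC* and *MMP1* had log2 fold changes of -0.41 and -0.34. The 1 on the other side was *AXL*, a receptor tyrosine kinase, at 189.8 and 188 CPM in the control and 233 and 251 CPM in OE (log2 fold change 0.36). The intermediate filament gene *VIM* was higher mainly in OE 1, with its leading transcript differing between libraries, at 348 and 349.7 CPM in the control and 1254 and 376 CPM in OE.

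Epithelial genes that SNAI and TWIST factors are known to repress were low or undetected in part: of 17, 8 passed the filter, and *CDH1*, *ESRP1* and *GRHL2* were at 0 counts in all 4 libraries. Of the 8 tested, 7 had a negative and 1 a positive log2 fold change. Among the negative ones *EPCAM*, *CLDN3*, *ESRP2* and *KRT19* were near the detection limit, with means of 0.669, 0.519, 0.641 and 0.465 CPM. The median of the list was -0.46 (-0.28 without OE 1 and -0.69 without OE 2). It was -0.19 with a minimum of 1 count and -0.11 with the leading transcript alone. At an unadjusted p under 0.05 by edgeR, 1 was higher and 1 lower, where all tested genes gave 10.1% and 10.7%. *KRT18*, a keratin of simple epithelia whose leading transcript differed between libraries, was at 60.0 and 55.6 CPM in the control and 55.2 and 55.8 CPM in OE. *OCLN*, a tight junction gene, was at 8.20 and 6.89 CPM in the control and 13.5 and 13.6 CPM in OE (log2 fold change 0.84, edgeR adjusted p = 0.109). *KRT8*, an epithelial keratin, was at 11.6 and 11.7 CPM against 7.21 and 7.43 CPM, with a different leading transcript between libraries. Of 15 skeletal targets of RUNX2 and SOX9, 6 were tested, of which 1 was higher and 2 lower at that p, with a median of -0.34 (-0.15 without control 2, -0.10 without OE 1, -0.07 with a minimum of 1 count and -0.08 among genes with 1 leading transcript). *HAPLN1*, a link protein of cartilage matrix, was at 339 and 331 CPM against 216 and 229.8 CPM (log2 fold change -0.59, edgeR adjusted p = 0.069). The cartilage genes *COL2A1*, *ACAN* and *COMP* were at 0 counts in all libraries. Among the tested skeletal targets *BGLAP*, *ALPL* and *SPP1* were near the detection limit, with means of 0.488, 0.334 and 0.396 CPM.

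The opposite state was measured on 21 adrenergic core transcription factors, of which 20 were tested. Of these, 15 were higher and 0 lower at an unadjusted p under 0.05 by edgeR, DESeq2 called 11 higher and 0 lower, and the median log2 fold change was 0.77. Over all tested genes the shares were 10.1% higher and 10.7% lower by edgeR, and 4.35% and 4.42% by DESeq2. *KLF13*, a Krüppel-like factor, was at 78.9 and 83.9 CPM in the vector control and 173 and 145 CPM in OE (log2 fold change 0.97, SE 0.12, edgeR adjusted p = 0.0764). *ZNF536*, a zinc finger factor, was at 11.2 and 11.8 CPM against 24.5 and 21.0 CPM (log2 fold change 0.98, edgeR adjusted p = 0.0832). *KLF7*, a relative of *KLF13* in neurons, was at 153 and 129.8 CPM against 235 and 232 CPM (log2 fold change 0.72, edgeR adjusted p = 0.0892). Over the list, both OE libraries lay above both controls in 17 genes (27.8% of all tested genes) and below in 0 (27.6%), and 3 overlapped. The summed level of the 12 sympathetic markers, which share genes with this list, was 751 and 815 CPM in the control and 1256 and 1209 CPM in OE. That of the 8 mesenchymal-type markers was 2757 and 3307 CPM against 3641 and 2176 CPM. Single libraries weigh on the mesenchymal-type sum: *VIM* was at 1254 CPM in OE 1, *COL1A1* at 326 CPM in OE 2 and *THY1* at 179 CPM in control 1. In the other library of the same group these genes were at 376, 883 and 635 CPM. The part of cell composition in the levels of the 10 factors was not tested.

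**Figure D4:**
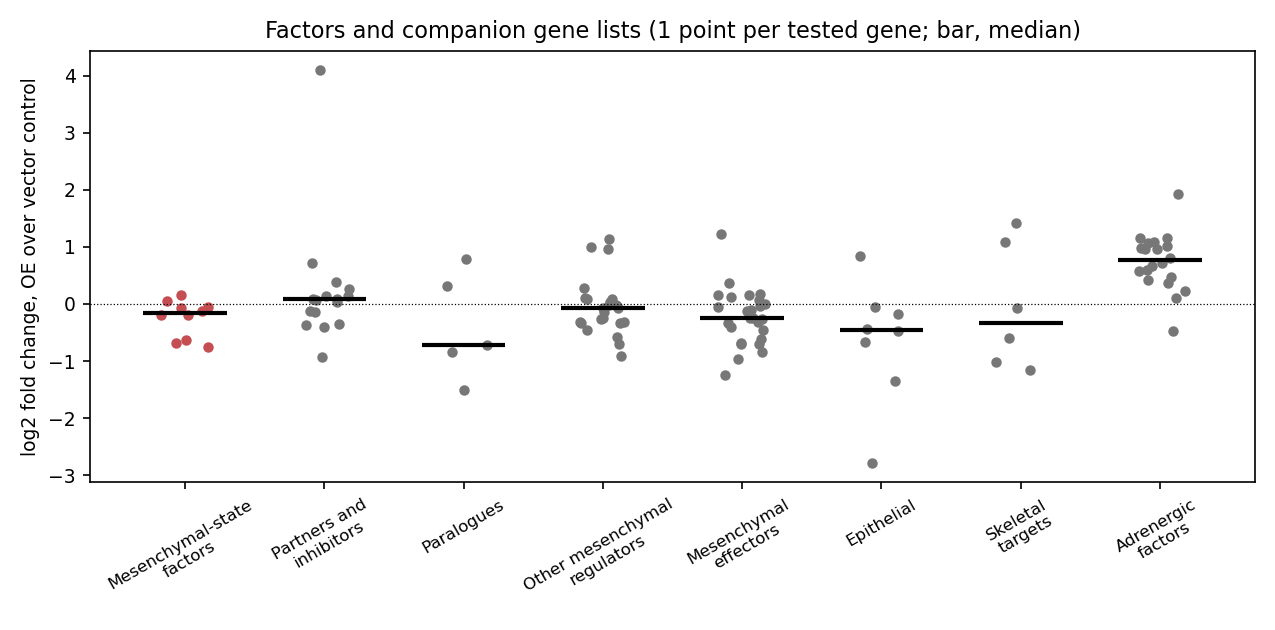
Log2 fold change (OE against vector control) of every tested gene in the 10 factors and the 7 companion lists, 1 point per gene, with the median of each list. The adrenergic factors have a median of 0.77, and the mesenchymal effector genes of -0.24.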

How the data were processed

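RNA-seq was measured in 4 SK-N-SH libraries. The deposited values are raw read counts for each transcript, which the authors obtained after Trimmomatic trimming and Bowtie2 mapping to hg19. The submitters' processing notes name Bowtie2 2.0.4, Picard 2.21.6, StringTie 2.1.6 and DESeq2. The counting tool, annotation release and strand setting are not given in the sources used here. Conditions and replicate numbers came from the sample labels, the treatment label giving the empty vector for the libraries titled WT.

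The 196520 transcripts were summed to 57820 genes. Genes kept by filterByExpr (20528) were scaled by TMM and tested with edgeR 4.0.16's quasi-likelihood test in R 4.3.3, with Benjamini-Hochberg adjustment over all of them and no covariates. The study's methods name DESeq2 (1.42.0 here), which was run as an alternative with limma-voom (limma 3.58.1), RLE and upper-quartile scaling, a minimum of 1 count, a replicate block, an adjusted p under 0.05, the leading transcript alone, and each library left out. A non-legacy edgeR fit and a fit on genes with 1 leading transcript in all libraries were chosen after seeing the data. The scripts were tested on simulated counts. Where a library had 0 counts, up to 3 counts remain possible, for counting error only, as reads carry no molecular identifiers.

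All 10 factors are named. From each companion list, at most 5 genes with an unadjusted p under 0.05 and a mean of at least 1 CPM were named by smallest p, and the 3 genes most like *PRRX1*. For some genes that this rule covers, the result is not reported here. *TCF3*, *TCF4*, *TCF12*, *JUN*, *ZEB1*, *ZEB2*, *VIM*, *AXL*, *CDH1*, *ESRP1*, *GRHL2*, *KRT18*, *COL2A1*, *ACAN* and *COMP* were named after their values were seen. So were *COL1A1*, *THY1*, *CLDN3*, *ESRP2*, *KRT19*, *BGLAP*, *ALPL* and *SPP1*. The members and the lists were chosen with earlier results of these data known. Lengths were taken from GENCODE lifted to GRCh37 (182863 of the transcripts) and promoter windows from RefSeq (5 of 10 factors). Of 75-base runs of the factors' transcripts, only 2 of 9987 in *RUNX1* occurred in the sense direction in a transcript of another gene. Runs on the opposite strand were not compared. Figures were drawn with matplotlib 3.10.9.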

Additional observations from a re-analysis of the deposited data

How the results depend on the processing

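The number of genes called over the whole table depended on the settings: 0 with edgeR at the study's thresholds, 122 at an adjusted p under 0.05, 1800 with DESeq2, 9 with a minimum of 1 count, 1 with the leading transcript alone, 8 with the non-legacy fit and 33 among genes with 1 leading transcript. It was 0 with RLE, upper-quartile scaling, limma-voom and each library left out. At an unadjusted p under 0.05 edgeR gave 4269 genes. DESeq2 called *PRRX1* (-0.64) and *SNAI2* (-0.68). The direction of *RUNX2* (0.17) and *FOSL2* (0.84) reversed with the leading transcript alone; control 1 then has 0 counts for *FOSL2*. No factor changed direction under RLE or upper-quartile scaling.

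With each library left out in turn (the lone sample assumed to vary like the other group), log2 fold changes lay from -0.83 to -0.47 (*PRRX1*), -1.20 to -0.11 (*TWIST1*), -0.17 to 0.30 (*TWIST2*), -0.11 to 0.01 (*SNAI1*), -0.72 to -0.65 (*SNAI2*), -0.16 to -0.01 (*RUNX1*), -1.73 to 1.12 (*RUNX2*), 0.12 to 0.17 (*FOSL1*), -0.23 to -0.17 (*FOSL2*) and -0.40 to -0.03 (*SOX9*). Signs reversed for *TWIST2* without control 1 (-0.17) or OE 1 (-0.07), *SNAI1* without control 2 (0.01) and *RUNX2* without control 2 (1.12) or OE 2 (0.63).

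List medians moved to -0.19 (epithelial genes, minimum of 1 count), -0.11 (epithelial) and -0.85 (paralogues) with the leading transcript alone, and -0.26 (paralogues), -0.12 (effectors) and 0.96 (adrenergic factors) among genes with 1 leading transcript, where fewer genes were tested. With a library left out they lay from -1.01 to -0.34 (paralogues), 0.64 to 0.88 (adrenergic), -0.06 to 0.09 (partners), -0.69 to -0.28 (epithelial), -0.25 to -0.19 (effectors), -0.18 to -0.10 (other regulators) and -0.41 to -0.10 (skeletal targets).

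Over the gene sums as a whole, same-numbered samples did not deviate together (r = -0.015 across 20528 genes, which are not independent). The numbers were therefore not taken as pairs. Such a value does not show that no single gene went by replicate number, as the placement of *SNAI2* did. With a replicate block 0 genes were called, and the factors lower at an unadjusted p under 0.05 by edgeR went from 3 to 1. Over all 20528 tested genes, those lower at that p went from 2200 to 1578. The common dispersion was 0.122 with 1.75 prior degrees of freedom. Depth limits most the low genes, such as *FOSB* at 21 to 65 counts.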
